A study of Macaca mulatta with 16 samples.

Results

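The nuclear genes for the subunits of respiratory complexes III, IV and V were followed in extraocular muscle, the muscle that moves the eye, of adult rhesus macaques. Members were all probe sets of the human arrays U133A and U133B whose platform symbol is CYC1 or begins with UQCR, COX4I, COX5, COX6, COX7, COX8 or ATP5, also where it stands in a list of several symbols. The rule itself uses gene symbols and no measured value. It found 82 probe sets of 44928 in all, of which 62 were on U133A and 20 on U133B. On U133A, 11 belonged to complex III, 20 to complex IV and 31 to complex V, and U133B held 4, 9 and 7 of them. Probe sets with a single symbol stood for 42 of the 17518 genes so named on the arrays, 7 of complex III, 17 of complex IV and 18 of complex V. The other 4 probe sets carried several symbols and were counted but not named.

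Complex III (ubiquinol-cytochrome c reductase) passes electrons from ubiquinol to cytochrome c, complex IV (cytochrome c oxidase) passes them on to oxygen, and both pump protons out of the mitochondrial matrix. Complex V (ATP synthase) lets the protons back through a membrane rotor and makes ATP in its catalytic head. Several complex IV subunits come as a general isoform and an isoform found mainly in heart and skeletal muscle, such as COX6A2 for subunit VIa and COX7A1 for subunit VIIa. Extraocular muscle is rich in mitochondria, above all in the fibres of its orbital layer.

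The study sampled 4 groups of adult animals, each with 2 arrays of each type: the outer orbital layer, the inner global layer, the whole lateral rectus and the whole medial rectus. The layers were cut out with a laser and their mRNA went through T7-based amplification, whereas the whole muscles followed the standard Affymetrix protocol. Neither the number of animals nor which arrays share an animal is given in the labels. A p-value thus covers no more than the spread among these samples, which may be technical, and may be too small in any comparison. If orbital and global arrays share animals, that pairing is ignored between the layers, and p-values there may instead be too large. Monkey RNA was read with human probes, and a mismatch between the species can lower a probe set. For this reason levels are compared between groups within a probe set and never between genes. Whole tissue pieces were measured, so fewer cells of a type and less RNA per cell cannot be told apart. On U133A, orbital layer replicate 1 has a title that says orbital and a source name that says global. The title was used, and layer results are also given without that array. On U133B, the source name of global layer replicate 1 does not say which layer it is.

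Values are array intensities scaled to the same trimmed mean on every array, and differences are on the log2 scale. Fibre markers were present in every group: MYH13, the myosin heavy chain typical of extraocular muscle, ranged from 65563 to 122873 over the 8 U133A arrays. Some measures of the RNA differed between groups. For ACTB on U133A, the signal of the 3′ probe set over that of the 5′ probe set was 5.30 to 5.87 in the orbital layer, 2.84 to 2.88 in the global layer and 0.716 to 1.04 in whole muscle. The median intensity of all probe sets was 476 to 587 in the layers and 788 to 852 in whole muscle. A probe set was tested in a comparison if its mean over the arrays compared reached the median of the whole table, and 56 U133A members and 9 U133B members were tested in all 3 comparisons. On the other side, 4 members on U133A and 9 on U133B were too dim for any comparison, among them COX8C and the only U133B probe sets of COX6A1 and COX7B.

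**Figure D1:**
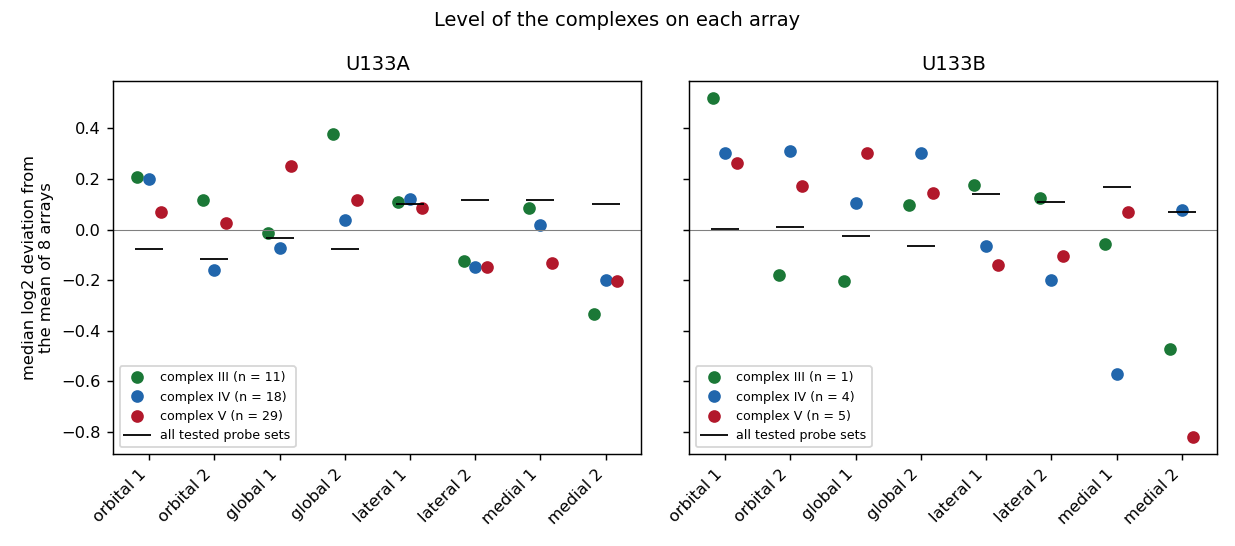
Median log2 deviation of complex III, IV and V probe sets from their mean over the 8 arrays, by array, for U133A (left) and U133B (right), with black bars for all tested probe sets. On U133A complex V lay highest on global layer replicate 1 (0.25) and lowest on medial rectus replicate 2 (-0.20), while all tested probe sets lay between -0.12 and 0.12.

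Of the muscle-type isoforms of complex IV, COX6A2 was lowest in the orbital layer. COX6A2 read 3748 and 4239 on the orbital arrays, 4356 and 4808 on the global arrays, 5115 and 5251 on the lateral rectus arrays and 4645 and 5045 on the medial rectus arrays. Both orbital arrays lay below all 6 others, and the lateral rectus arrays were the highest. The general isoform COX6A1 read 7070 and 5882 on the orbital arrays, 5438 and 4050 on the global arrays, 3469 and 4417 on the lateral rectus arrays and 4858 and 6051 on the medial rectus arrays. Here the orbital arrays lay above the global arrays and the medial above the lateral rectus arrays. The group means were 3994 ± 347 (SD, n = 2) and 4582 ± 320 for COX6A2 in the orbital and global layer, and 6476 ± 840 and 4744 ± 982 for COX6A1. Neither isoform passed the threshold by itself: the orbital minus global difference was -0.20 ± 0.24 (SE) for COX6A2 (limma, Benjamini-Hochberg adjusted p = 0.821) and 0.46 ± 0.26 for COX6A1 (limma, adjusted p = 0.619).

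Within an array, the log2 ratio of COX6A2 to COX6A1 shows unequal change of the isoforms. A factor common to a whole array cancels in it, but quantile normalization can change it. With trimmed mean scaling the ratio was -0.92 and -0.47 in the orbital layer and -0.32 and 0.25 in the global layer. The mean was -0.69 ± 0.31 (SD, n = 2) against -0.04 ± 0.40, a difference of -0.66, and the layers did not overlap. Without orbital layer replicate 1 the difference was -0.44, and with quantile normalization it was -0.56. The exact two-sided permutation p was 0.333, the smallest that 2 against 2 arrays can give, so this design cannot pass the threshold. The ratio was 0.56 and 0.25 in lateral rectus and -0.06 and -0.26 in medial rectus, again without overlap, with a difference of -0.57 (exact permutation p = 0.333). Layers and whole muscle overlapped in it, with a difference of -0.49 (exact permutation p = 0.143). In all, 9 such tests were made, on 3 isoform pairs in 3 comparisons, and the adjusted p of each of these was 0.429.

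For COX7A1, the muscle-type isoform of subunit VIIa, the direction between layers and whole muscle depended on the scaling. COX7A1 read 10543 and 12017 on the orbital arrays, 8510 and 11821 on the global arrays, 11543 and 9970 on the lateral rectus arrays and 10471 and 9006 on the medial rectus arrays. Both orbital arrays lay above both medial rectus arrays, and all other pairs of groups overlapped. The general isoform COX7A2 read 17716 and 13354 on the orbital arrays, 18334 and 10320 on the global arrays, 7296 and 6862 on the lateral rectus arrays and 7992 and 6345 on the medial rectus arrays. All 4 layer arrays lay above all 4 whole muscle arrays, while the layers overlapped each other and so did the muscles. COX7A2 was 2.05-fold higher in the layers, a difference of 1.04 ± 0.19 (limma, adjusted p = 0.0013), whereas that of COX7A1 was 0.06 ± 0.16 (adjusted p = 0.784). With quantile normalization COX7A2 had 0.61 (limma, adjusted p = 0.0288), and COX7A1 turned to -0.42 and passed the threshold (adjusted p = 0.0411).

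The log2 ratio of COX7A1 to COX7A2 was between -1.11 and 0.20 on the layer arrays and between 0.39 and 0.66 on the whole muscle arrays. These ranges did not overlap, and the means were -0.45 ± 0.59 (SD, n = 4) and 0.52 ± 0.11. The difference of -0.98 had an exact permutation p of 0.0286, the smallest that 4 against 4 arrays can give, and an adjusted p of 0.257 over the 9 tests. Between the layers the difference was 0.01 (exact permutation p = 1). It was -0.65 without global layer replicate 1 and -0.29 without orbital layer replicate 2, so it had no steady direction. Between the muscles it was -0.15 (exact permutation p = 0.333), with the medial rectus lower and no overlap.

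COX4I2 is the isoform of subunit IV best known from lung, and its pair with the general COX4I1 was added after the values had been seen. COX4I2 on U133B read 3756 and 3759 on the orbital arrays, 2771 and 2848 on the global arrays, 3036 and 4264 on the lateral rectus arrays and 1670 and 3726 on the medial rectus arrays. The orbital arrays lay above the global arrays, and the whole muscle arrays spanned both. The difference between the layers was 0.42 ± 0.28 (limma, adjusted p = 0.764). COX4I1 on the same arrays read 47639 and 48111 in the orbital layer, 48943 and 62958 in the global layer, 35465 and 20904 in lateral rectus and 31813 and 24415 in medial rectus. The layers lay above whole muscle on every array, by 0.90 ± 0.22 (limma, adjusted p = 0.0057), which turned to -0.40 with quantile normalization (adjusted p = 0.09). The same probe set is also on U133A, where layers and whole muscle overlapped and it did not pass (0.30 ± 0.28, limma, adjusted p = 0.41). The ratio of COX4I2 to COX4I1 was higher by 0.63 in the orbital layer with no overlap (exact permutation p = 0.333, adjusted p = 0.429). Between layers and whole muscle the difference of this ratio was -0.79, with overlap (exact permutation p = 0.143). It turned to 0.56 with quantile normalization.

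The always-expressed COX4I1 on U133A was less even between replicates. Its brightest probe set read 61137 and 37593 on the orbital, 64160 and 37319 on the global, 69816 and 23887 on the lateral rectus and 59097 and 22762 on the medial rectus arrays. Replicate 1 lay far above replicate 2 in all 4 groups, so that all groups overlapped. COX6B1, a subunit on the outer face of the enzyme, read 19969 and 21750, 20991 and 22780, 19629 and 15899, and 17753 and 14145 in the same order of groups. The layers lay above whole muscle on every array, without passing the threshold, and with quantile normalization the difference lay below 0.

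**Figure D2:**
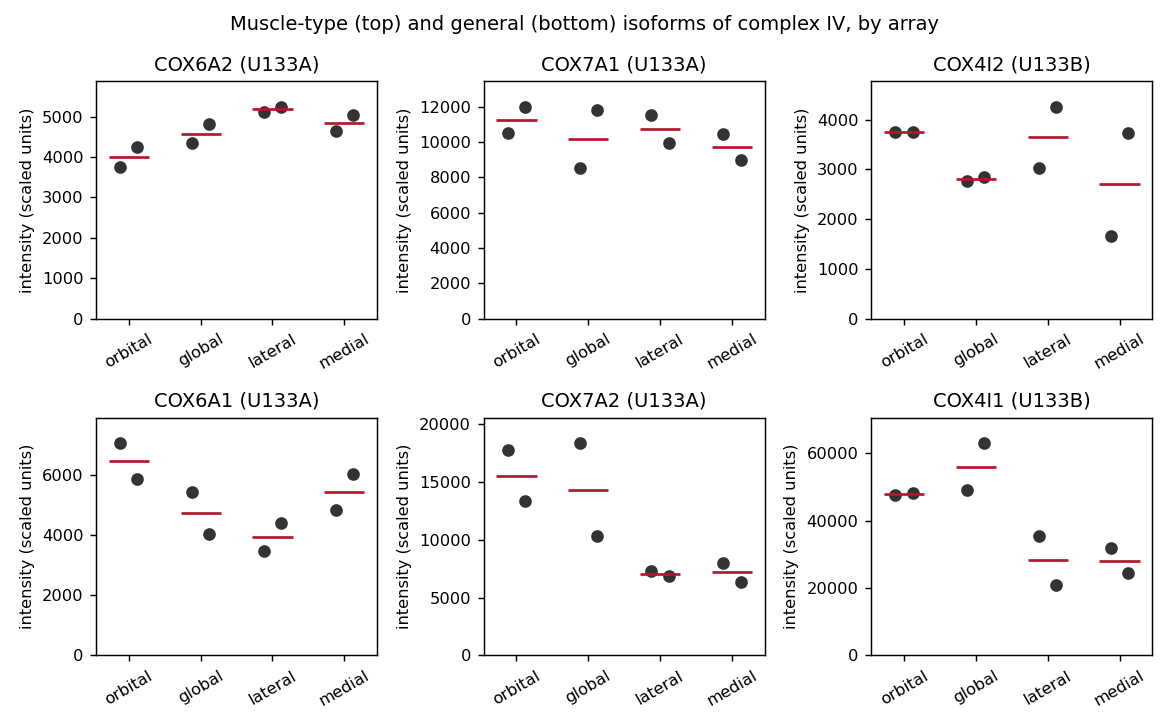
Intensity of the muscle-type or tissue-restricted isoforms COX6A2, COX7A1 and COX4I2 (top) and of the general isoforms COX6A1, COX7A2 and COX4I1 (bottom), with a point per array and a red line at each group mean of 2 arrays. COX6A2 was lowest on both orbital arrays, and COX7A2 was 10320 to 18334 on the layer arrays and 6345 to 7992 on the whole muscle arrays.

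Between the layers, none of the 56 tested U133A members passed the threshold. ATP synthase genes lay mostly lower in the orbital layer, and those of complexes III and IV lay on both sides. By limma, 0 of 56 members had an adjusted p under 0.05, against 0.409% of all 9532 probe sets tested. At an unadjusted p under 0.05 there were 4 members, UQCR10, COX5A, ATP5F1C and ATP5ME, or 7.14% against 9.49% of all probe sets. The 2 layers did not overlap, with the orbital layer lower, in 20 members (35.7%), against 23.4% of all tested probe sets, and with the orbital layer higher in 2 members (3.57%), against 18.5%. On U133B, 0 of 9 tested members passed, against 0.021% of all probe sets, and 1 of them, ATP5MK, had an unadjusted p under 0.05, against 7.76%. There 5 of 9 lay lower in the orbital layer, against 47%, wholly so in 4, against 17.8%, and 1 lay wholly higher, against 20.8%.

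In ATP synthase, 21 of 27 tested U133A probe sets lay lower in the orbital layer, against 54% of all probe sets, and the count was 23 with quantile normalization. The median difference was -0.16, against -0.04 for all tested probe sets. It was -0.13 without orbital layer replicate 1, -0.28 without global layer replicate 1 and -0.26 without orbital layer replicate 2, so its size varied with the array left out. In 13 of the 27 the orbital arrays lay wholly below the global arrays, against 23.4% of all tested probe sets. In 0 they lay wholly above, against 18.5%. Taking 1 probe set per gene, 14 of 16 genes lay lower, against 54% of all probe sets, and 7 of the 16 with no overlap, against 23.4%.

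The catalytic head of the enzyme followed this pattern in part. ATP5F1B, the catalytic beta subunit, read 53748 and 61658 in the orbital layer and 70831 and 78109 in the global layer. The orbital arrays lay below the global arrays, and below all but 1 of the whole muscle arrays, which read 60512 to 73188. ATP5F1A, the alpha subunit, read 130148 and 123989 against 146994 and 125372, and the layers overlapped. ATP5F1C, the gamma subunit that turns inside the head, had 4 probe sets, of which 3 had orbital arrays wholly below the global arrays and 1, a dim probe set, overlapped. The probe set of ATP5F1C with the smallest p read 24426 and 23569 in the orbital layer and 35521 and 32183 in the global layer. The layers did not overlap there, and the difference was -0.49 ± 0.20 (limma, adjusted p = 0.489).

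ATP5ME and ATP5MK, small membrane subunits at the contact between ATP synthase monomers, had the largest differences of the complex on their arrays. The dimmer ATP5ME probe set read 2566 and 2277 in the orbital layer and 4626 and 3745 in the global layer, and the brighter read 8911 and 8006 against 17729 and 10352. Neither overlapped, and the differences were -0.78 ± 0.26 (limma, adjusted p = 0.386) and -0.68 ± 0.30 (adjusted p = 0.528). With an array left out the difference of the brighter ranged from -1.07 to -0.29. ATP5MK on U133B read 77804 and 81041 in the orbital layer and 129284 and 137354 in the global layer, with no overlap and a difference of -0.75 ± 0.23 (limma, adjusted p = 0.508). Replicates of ATP5MK differed by at most 1.06-fold within a layer, while the layers differed by 1.68-fold.

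Further parts of ATP synthase lay the same way on U133A. ATP5MC1, a gene for the c subunit of the rotor ring, read 10362 and 11228 in the orbital layer and 14613 and 13110 in the global layer, without overlap. ATP5MC3, another gene for the same mature subunit, read 70000 and 66156 against 77106 and 80057, without overlap. Its dim U133B probe set overlapped, at 1944 and 1621 against 1775 and 1043 (0.38 ± 0.40, limma). ATP5PF, a part of the peripheral stalk that holds the head still, read 4516 and 4248 against 5166 and 5654, again with the orbital arrays lower. Of the other head and ring genes, ATP5F1E, the epsilon subunit of the head, read 21568 and 18957 against 14741 and 20457, and ATP5MC2, the remaining ring gene, read 15849 and 15807 against 11666 and 20040. Both of these overlapped.

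The inhibitor of ATP synthase, ATP5IF1, which blocks the enzyme when the membrane loses its potential, was read by both array types. ATP5IF1 on U133A read 11097 and 12350 in the orbital layer and 12422 and 18677 in the global layer. Its brighter U133B probe set read 11929 and 13225 against 13711 and 20386. On both array types the orbital arrays lay below the global arrays, and global layer replicate 2 stood above the rest. The U133B difference was -0.41 ± 0.28 (limma, adjusted p = 0.77).

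In complex IV, COX5A was the member with the smallest p. COX5A encodes a subunit on the matrix side of the enzyme. COX5A on U133A read 33148 and 34044 on the orbital arrays, 53090 and 49948 on the global arrays, 38190 and 36241 on the lateral rectus arrays and 38510 and 33470 on the medial rectus arrays. Both global arrays lay above all 6 others, and the orbital arrays lay close to the medial rectus. The means were 33596 ± 633 (SD, n = 2) and 51519 ± 2222, and the difference of -0.62 ± 0.19 did not pass (limma, adjusted p = 0.352). It was -0.60 without orbital layer replicate 1.

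COX5B, the companion subunit, leaned the other way without a clear separation. Its brightest probe set read 20905 and 11225 in the orbital layer and 7679 and 13069 in the global layer, which overlapped, and the difference was 0.61 ± 0.37 (limma, adjusted p = 0.63). The 3 tested COX5B probe sets were all higher in the orbital mean, and orbital layer replicate 1 was the highest layer array in each. COX8A, another small subunit, read 3216 and 3193 against 3700 and 3603, with the orbital arrays lower and replicates almost equal. On U133B COX5A read 4573 and 6413 on the orbital and 8838 and 5752 on the global arrays, which overlapped (-0.40 ± 0.32, limma). The median of the 18 tested complex IV probe sets was 0.12, and -0.05 without orbital layer replicate 1, so the complex as a whole had no steady direction.

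In complex III, UQCR10 and UQCRB had the largest differences. UQCR10, a small membrane subunit, read 11639 and 14078 in the orbital layer and 6027 and 10107 in the global layer. The orbital layer was higher with no overlap, and the difference was 0.71 ± 0.30 (limma, adjusted p = 0.509), and 0.34 to 1.09 with an array left out. UQCR11, a subunit of similar size, read 2930 and 2440 against 3512 and 3975, the reverse order, also with no overlap, and the difference was -0.48 ± 0.25 (limma, adjusted p = 0.591). CYC1 and UQCRC2 overlapped between the layers: CYC1, the cytochrome c1 gene, read 11684 and 7752 against 8777 and 7032, and UQCRC2 in its brighter probe set read 10819 and 16584 against 16805 and 16519. UQCRC1, a core protein like UQCRC2, read 33776 and 31921 against 34127 and 41820, with the orbital arrays lower by a narrow margin.

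The 3 probe sets of UQCRB gave no common direction. The brightest read 36681 and 32816 in the orbital layer and 18159 and 39675 in the global layer, which overlapped. The dimmest read 1200 and 1103 against 2869 and 1398, with the orbital layer lower and a difference of -0.80 ± 0.37 (limma, adjusted p = 0.554). Leaving out global layer replicate 1 brought that difference to -0.28. The median of the 11 complex III probe sets was -0.03, and -0.28 without global layer replicate 1.

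**Figure D3:**
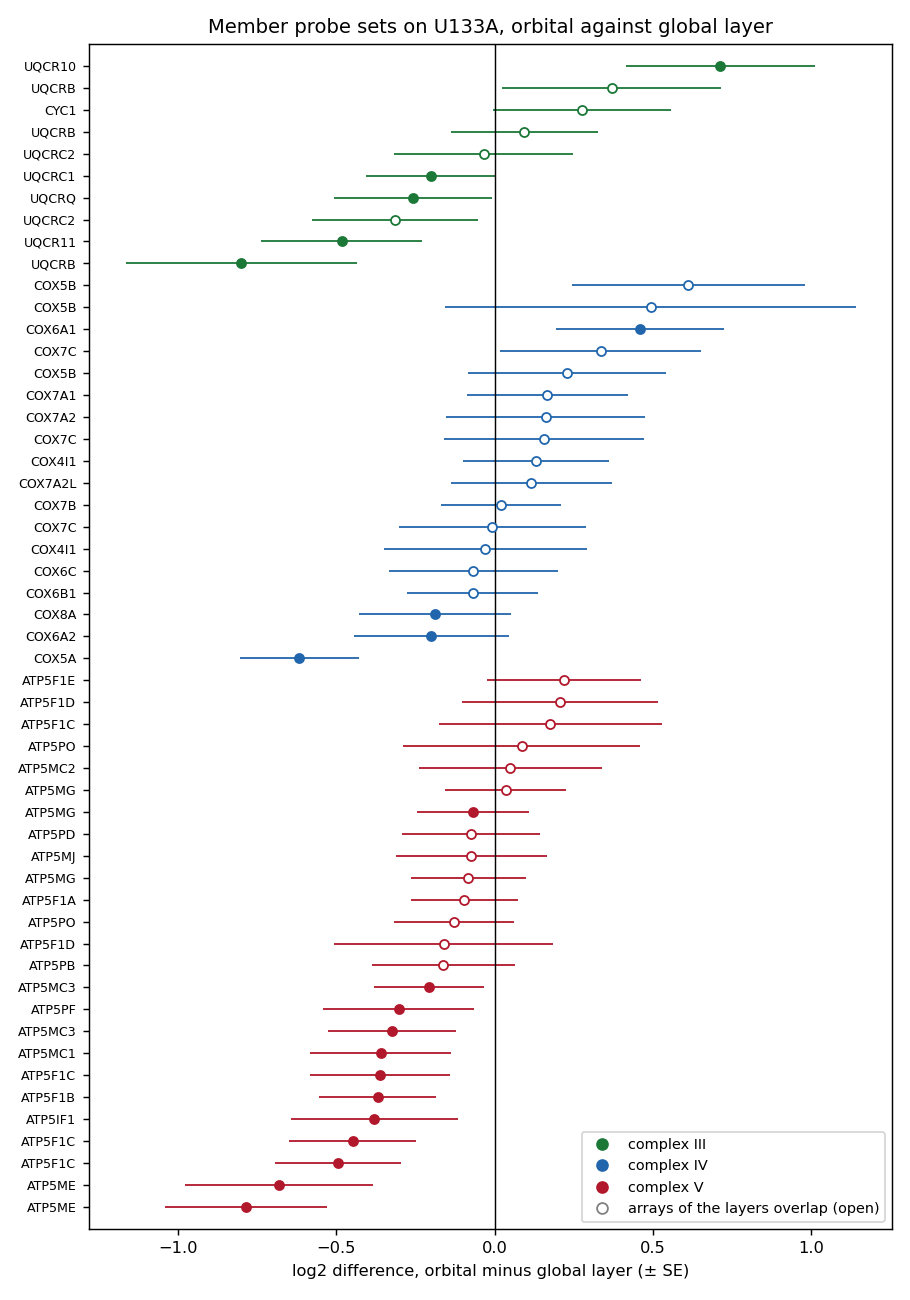
Log2 difference of each tested member probe set with 1 symbol on U133A, orbital minus global layer, with bars for the standard error, coloured by complex. Filled points are probe sets whose orbital and global arrays do not overlap, and in complex V all 12 filled points lie below 0, the lowest at -0.78 for ATP5ME. Over all tested U133A probe sets, 23.4% lay wholly lower and 18.5% wholly higher in the orbital layer.

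Of the other genes of the pathway, carriers and assembly factors leaned the same way as ATP synthase without passing, and regulators lay on both sides. Of a list of 41 electron carriers, further subunits and assembly factors, 15 were tested on U133A. Of these 13 lay lower in the orbital layer, against 54% of all probe sets, 2 higher, and 0 passed the threshold. Their median was -0.17, against -0.04 for all probe sets. On U133B 13 of 18 lay lower, against 47%, with a median of -0.21, against 0.03. TMEM70, which helps assemble ATP synthase, had a mean of 7023 in the orbital and 15126 in the global layer (difference -1.13 ± 0.29, limma, adjusted p = 0.255), and CYCS, the cytochrome c gene, had 19861 and 35070 (-0.79 ± 0.25, adjusted p = 0.369). Of the carriers, pores and mitochondrial creatine kinase that exchange ATP, ADP and phosphate, 6 of 7 on U133A lay lower in the orbital layer, against 54%. SLC25A5 lay higher, and 0 passed the threshold. Of 7 tested regulators of mitochondrial genes on U133A 5 lay higher and 2 lower, against 54% of all probe sets lower. On U133B 2 of 5 lay higher and 3 lower, against 47% lower. PPARGC1A, a coactivator of mitochondrial gene expression, had 24693 in the orbital and 17644 in the global layer (0.48 ± 0.23, limma, adjusted p = 0.556). PPARGC1B on U133B lay the other way, at 8824 and 11800 (-0.42 ± 0.26, limma, adjusted p = 0.748).

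Marker levels also differed between the layers. On U133A, the summed level of 10 fibre markers was 641446 to 687800 on the orbital and 699082 to 763015 on the global arrays. Of the fibroblast markers there 6 of 7 lay higher in the orbital layer (sum 228773 to 260933 against 194158 to 196072). Endothelial markers lay lower in 6 of 6 tested (14622 to 16205 against 18286 to 23772), and smooth muscle markers higher in 4 of 5 (37225 to 38764 against 34780 to 36047). Of the 10 fibre markers 7 lay lower and 3 higher in the orbital layer, the latter being DES (1.29 ± 0.36), MYH2 (0.80 ± 0.22) and MB (0.28 ± 0.22). On U133B only 1 of 3 tested fibroblast markers had a greater orbital mean, and the sums overlapped (12825 to 18302 against 13571 to 16782). COL3A1 had 0.97 ± 0.22 on U133A but -0.03 ± 0.29 on U133B, and TTN had -0.06 ± 0.16 and 0.31 ± 0.36. The endothelial EMCN (-0.10 ± 0.25) and the smooth muscle TAGLN (0.29 ± 0.30) kept their U133A direction on U133B. The adipocyte marker FABP4 differed more than any of these, at -1.74 ± 0.46 on U133A and -1.86 ± 0.55 on U133B, and the adipocyte sums were 1120 to 2155 in the orbital and 3352 to 6605 in the global layer on U133A. None of these markers passed the threshold between the layers by limma, and their part in the member values was not tested.

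Between the muscles, no member passed the threshold. On U133A 0 of 58 tested members had an adjusted p under 0.05 by limma, against 0% of all 11907 probe sets, and 3 members (5.17%) had an unadjusted p under 0.05, against 2.8%. On U133B it was 0 of 11, against 0%, and 0 had an unadjusted p under 0.05, against 3.43% of all probe sets. Most members lay lower in the medial rectus: 43 of 58 on U133A, against 49.5% of all probe sets, with a median of -0.11, and 9 of 11 on U133B, against 52%. The medial rectus arrays lay wholly below the lateral rectus arrays in 8 U133A members (13.8%), against 13.6%, and wholly above in 3 (5.17%), against 15%. On U133B they lay wholly below in 2 of 11, against 16.8%, and wholly above in 1, against 15.2%.

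The size of this difference, and in complex IV its direction, varied with single arrays. Without medial rectus replicate 2, the U133A medians were -0.04 for complex III, 0.05 for complex IV and -0.03 for complex V, in place of -0.12, -0.07 and -0.12, and the U133B median turned from -0.27 to 0.07. Without lateral rectus replicate 1 the U133A medians were -0.07, 0.07 and -0.04, and the U133B median was -0.09. With quantile normalization the complex IV median was 0.02, and 18 of 29 complex V probe sets lay lower in place of 24. On medial rectus replicate 2 COX4I1 read 5215 in its shared U133A probe set against 12760 to 14526 on the other 3 whole muscle arrays, and CYC1 read 5603 against 10201 to 11388. The sum of 3 red cell markers on U133A also differed between the muscles (9473 to 13497 in medial and 26541 to 33490 in lateral rectus). It was nearly all HBB, the only 1 tested there, with means of 10892 and 29255. ALAS2 on U133B lay the other way, with overlap (0.42 ± 0.54, limma). All 10 fibre markers on U133A lay lower in the medial rectus (776813 to 819531 against 831581 to 977584). Their part in these values was not tested.

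UQCRB, a small subunit that helps bind ubiquinone, gave the largest difference between the muscles in complex III. A probe set of it read 6045 and 5143 on the lateral rectus arrays and 3373 and 2782 on the medial rectus arrays, and its brightest read 30595 and 17925 against 16169 and 12685. Neither overlapped, and the differences were -0.86 ± 0.24 and -0.71 ± 0.28 (limma, adjusted p = 0.999 for both). That of the brightest was -0.32 without lateral rectus replicate 1, and the dimmest probe set overlapped, at 2174 and 1725 against 2174 and 1915. COX6A1 lay the other way, and COX8A had no steady size: COX6A1 was 0.47 ± 0.25 higher in the medial rectus without overlap, and COX8A read 2486 and 5360 in lateral and 4756 and 6114 in medial rectus, which overlapped (both limma, adjusted p = 0.999). The COX8A difference was 0.56 ± 0.36, and 0.0086 without lateral rectus replicate 1.

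Of the other members with large differences between the muscles, some changed sign with a single array left out and some did not. UQCRQ, a small subunit of complex III, read 6369 and 5453 in lateral and 4779 and 3202 in medial rectus, without overlap (-0.59 ± 0.27, limma), and -0.88 to -0.30 with an array left out. ATP5F1D in its dimmer probe set read 3609 and 1864 against 2952 and 787, which overlapped (-0.77 ± 0.60), and turned to 0.19 without medial rectus replicate 2. On U133B, ATP5MK read 55455 and 33366 against 45136 and 23632, which overlapped (-0.40 ± 0.40), and turned to 0.07 without that array. COX4I2 on U133B had -0.53 ± 0.46, which was -1.11 without medial rectus replicate 2 and 0.05 without medial rectus replicate 1. ATP5MC2P1, a pseudogene of ATP5MC2, read 792 and 735 in lateral and 1251 and 1114 in medial rectus, without overlap (0.63 ± 0.44), and stayed between 0.55 and 0.71 with an array left out.

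Layers and whole muscle were compared over the same arrays, 4 against 4 of each type, and this comparison shares all its layer arrays with the one between the layers. Layer dissection and mRNA amplification went with every layer array, so the tissue and the protocol cannot be told apart. Members of complexes IV and V were called in both directions here, in COX7C also between probe sets of the same gene. On U133A ATP5PB, ATP5MC1, ATP5MJ and COX7A2 rose, and COX6C and ATP5PD fell. Of the 3 COX7C probe sets 1 fell and 1 rose. On U133A 15 of 58 members were higher in the layers at an adjusted p under 0.05 by limma (25.9%), against 18.6% of all 10533 probe sets, and 5 were lower (8.62%), against 30.1%. On U133B 4 of 10 were higher, against 20.5%, and 1 was lower, against 22.3%. The layers lay wholly above whole muscle in 14 U133A members, against 16.6%, and wholly below in 6, against 27.3%, and on U133B in 4, against 19.1%, and 1, against 21.6%.

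These counts depend on the scaling. With quantile normalization 7 U133A members were called higher and 13 lower, against 19.7% and 19.4% of all probe sets, and 9 of the 20 calls were shared with those under trimmed mean scaling. The medians went from 0.12 to -0.10 in complex III, from 0.17 to -0.22 in complex IV and from 0.22 to -0.02 in complex V. Over all tested probe sets the median went from -0.18 to 0.00, and the share of calls that were higher in the layers from 38.3% to 50.4%. On U133B the calls went from 5 to 2, 1 in each direction, against 17.5% higher and 13.9% lower of all probe sets, and the higher share of all calls from 47.8% to 55.7%. Member values moved down by a median of 0.31 on U133A under quantile normalization while those of all probe sets moved up by 0.31. Of the 25 calls on both array types, 3 were of dim probe sets that passed the filter through whole muscle alone. Of the other 22, 9 kept their call and direction under every alternative that was run, and 13 were lost or turned under quantile normalization.

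ATP5PB, the b subunit of the peripheral stalk, had the largest increase in ATP synthase among the brightest probe sets on U133A. ATP5PB read 31939 and 36941 on the orbital, 32900 and 44851 on the global, 10828 and 14133 on the lateral rectus and 11936 and 16431 on the medial rectus arrays. Every layer array lay above every whole muscle array, and ATP5PB was 2.76-fold higher in the layers, a difference of 1.46 ± 0.17 (limma, adjusted p = 9.8e-05) that was 0.93 with quantile normalization. ATP5MJ, a small membrane subunit, read 14265, 11190, 14326 and 12329 in the layers and 5443, 4827, 5806 and 5248 in whole muscle, again apart on all arrays (1.28 ± 0.15, limma, adjusted p = 9.8e-05; 0.93 with quantile normalization). ATP5MC1 read 10362, 11228, 14613 and 13110 in the layers and 4325, 6064, 6625 and 3426 in whole muscle. The groups did not overlap, and ATP5MC1 rose by 1.31 ± 0.22 (limma, adjusted p = 0.000681; 0.99 with quantile normalization).

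Other subunits of ATP synthase fell. ATP5PD, the d subunit of the same peripheral stalk as ATP5PB, read 24950 and 23380 on the orbital, 22617 and 28535 on the global, 43639 and 47554 on the lateral rectus and 39116 and 44508 on the medial rectus arrays. All layer arrays lay below all whole muscle arrays, and the difference was -0.82 ± 0.13 (limma, adjusted p = 0.000582; -1.23 with quantile normalization). On U133A ATP5PB and ATP5PD, both of the stalk, thus lay on opposite sides under both scalings. A dim U133B probe set of ATP5PB overlapped, at 668 to 1284 in the layers and 685 to 2231 in whole muscle (-0.27 ± 0.44, limma; 0.19 with quantile normalization). ATP5PO, the stalk subunit that touches the head, read 47101 to 56925 in the layers and 29339 to 39197 in whole muscle, without overlap. Its difference was 0.56 ± 0.14 (limma, adjusted p = 0.0055), and 0.15 with quantile normalization (adjusted p = 0.371). ATP5F1B, at 53748 to 78109 in the layers and 60512 to 73188 in whole muscle, overlapped.

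ATP5IF1 and ATP5MK passed the threshold with trimmed mean scaling and not with quantile normalization. ATP5IF1 on U133A read 11097 to 18677 in the layers and 7155 to 9413 in whole muscle (0.71 ± 0.19, limma, adjusted p = 0.00869), and the difference was 0.26 with quantile normalization (adjusted p = 0.291). On U133B its brighter probe set had 0.80 ± 0.23 (limma, adjusted p = 0.0149), and -0.05 with quantile normalization. The dimmer U133B probe set of ATP5IF1 lay the other way and did not pass (-0.16 ± 0.21, limma, adjusted p = 0.552), with -0.15 under quantile normalization. ATP5MK read 77804 to 137354 in the layers and 23632 to 55455 in whole muscle (1.46 ± 0.30, limma, adjusted p = 0.00237), and 0.27 with quantile normalization (adjusted p = 0.381). ATP5F1D, the delta subunit of the head, rose in both of its probe sets, by 1.55 ± 0.40 (limma, adjusted p = 0.00704) and 0.76 ± 0.22 (adjusted p = 0.0123), and only the first kept its call with quantile normalization. ATP5MC3 in its dimmer probe set read 59504 to 86258 in the layers and 42286 to 52308 in whole muscle (0.52 ± 0.15, limma, adjusted p = 0.0132), and 0.21 with quantile normalization (adjusted p = 0.239). ATP5MG, a membrane subunit of the dimer contact, had the smallest called difference, 0.38 ± 0.13 (limma, adjusted p = 0.0308), at 58063 to 62898 against 42291 to 56088 in that probe set, and lost its call under 8 alternatives.

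In complex IV, COX6C, a small subunit without a tissue isoform, had the steadiest decrease. COX6C read 1856 and 1910 on the orbital, 2277 and 1708 on the global, 5074 and 4519 on the lateral rectus and 5009 and 4572 on the medial rectus arrays. The means were 1938 ± 242 (SD, n = 4) and 4794 ± 288, a 2.48-fold difference of -1.31 ± 0.16 (limma, adjusted p = 0.00013) that was -1.30 with quantile normalization. COX7A2L, a protein that joins complexes III and IV into supercomplexes, read 6066 to 8012 in the layers and 4137 to 4989 in whole muscle (0.55 ± 0.16, limma, adjusted p = 0.0132), and 0.32 with quantile normalization (adjusted p = 0.117). COX6A2, which did not pass with trimmed mean scaling (-0.23 ± 0.15, limma, adjusted p = 0.229), had -0.41 and an adjusted p of 0.0494 with quantile normalization.

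COX7C, another small subunit, showed how far probe sets of the same gene can part. The first probe set read 4324, 2762, 3720 and 3239 in the layers and 11542, 9357, 12292 and 9883 in whole muscle, all apart, and fell (difference -1.63 ± 0.18, limma, adjusted p = 6.84e-05). A second read 20487, 11133, 12351 and 14873 in the layers and 11155, 6707, 8935 and 9046 in whole muscle, which overlapped by a narrow margin, and had 0.70 ± 0.21 (limma, adjusted p = 0.0183). The call of the second was lost without orbital layer replicate 1 and without lateral rectus replicate 2. The last of the 3 read 6320 to 12155 in the layers and 6707 to 12706 in whole muscle and did not pass. COX5A likewise overlapped on U133A, at 33148 to 53090 against 33470 to 38510, while its U133B probe set read 4573 to 8838 in the layers and 350 to 2266 in whole muscle (2.70 ± 0.51, limma, adjusted p = 0.00151). Over the 12 genes with several tested probe sets on U133A, 4 had probe sets of both signs in this comparison, as did 7 of 11 between the layers and 4 of 12 between the muscles.

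**Figure D4:**
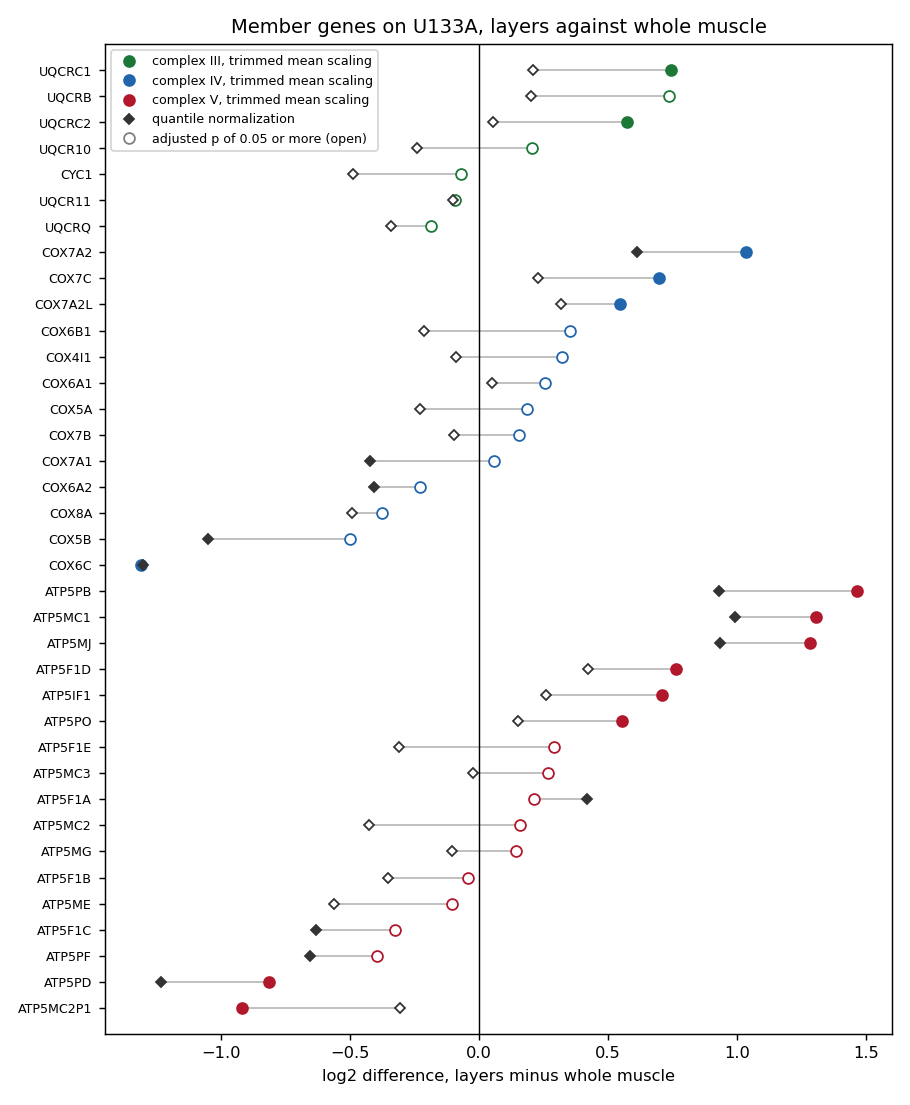
Log2 difference between layers and whole muscle of each member gene on U133A, given by its brightest probe set, with coloured circles for trimmed mean scaling and dark diamonds for quantile normalization, filled where the limma adjusted p is under 0.05. Most diamonds lie to the left of their circles, while ATP5PB, ATP5MC1, ATP5MJ and COX7A2 stay above 0 and COX6C and ATP5PD below 0 in both.

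In complex III the calls were on the higher side and none kept its call with quantile normalization. UQCRC1 read 33776 and 31921 on the orbital, 34127 and 41820 on the global, 26453 and 19527 on the lateral rectus and 20993 and 17968 on the medial rectus arrays. The layers lay above whole muscle on all arrays, and the difference was 0.75 ± 0.16 (limma, adjusted p = 0.00247), or 0.21 with quantile normalization (adjusted p = 0.276). A UQCRB probe set had 0.88 ± 0.23 (limma, adjusted p = 0.00854), and 0.68 with quantile normalization (adjusted p = 0.055). UQCRC2 in its brighter probe set had 0.57 ± 0.18 (limma, adjusted p = 0.0216), a call lost without orbital layer replicate 2, global layer replicate 2 or lateral rectus replicate 2. CYC1, at 7032 to 11684 in the layers and 5603 to 11388 in whole muscle, overlapped.

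A few calls came from dim probe sets. A second ATP5MC2 probe set read 340 to 492 in the layers and 738 to 1878 in whole muscle (-1.87 ± 0.35, limma, adjusted p = 0.00128), while the bright one, at 11666 to 20040 and 12808 to 15709, overlapped. ATP5MC2P1 read 416 to 673 and 735 to 1251, and COX7B2, an isoform known from testis, read 464 to 654 and 1484 to 2660. These 3 were tested only because whole muscle lifted their mean over the filter, so they had to differ and their calls support nothing.

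Other genes of the pathway were called in both directions. Of the electron carriers and assembly factors 6 of 16 fell on U133A and 0 rose, against 30.1% and 18.6% of all probe sets. Among these 6, DMAC2L passed the filter through whole muscle alone, so its call supports nothing. On U133B 5 of 17 rose and 2 fell, against 20.5% and 22.3%. With quantile normalization 5 fell and 0 rose on U133A, and 3 rose and 1 fell on U133B. COXFA4, formerly counted as a complex I subunit and now placed with complex IV, fell (difference -1.46 ± 0.19 in limma), and COX16, an assembly factor of complex IV, rose by 1.98 ± 0.26. Both kept their calls with quantile normalization, at -1.91 and 0.84. Of the 7 carriers and pores 4 rose on U133A, against 18.6%, among them CKMT2, the mitochondrial creatine kinase of muscle, with 0.71 ± 0.15 (limma, adjusted p = 0.00279), and of these CKMT2 alone was called with quantile normalization, at 0.52. Of 8 tested regulators 2 rose and 1 fell on U133A, against 18.6% and 30.1%. PPARGC1A rose by 1.38 ± 0.18 (limma, adjusted p = 0.000141), and by 0.90 with quantile normalization. On U133B 3 of 5 regulators rose and 1 fell, against 20.5% and 22.3%. There PPARA, which rose, and PPARD, which fell, each passed the filter through 1 group alone, so their calls support nothing.

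Among the markers, 3 of 5 tested smooth muscle markers rose in the layers on U133A, against 18.6% of all probe sets (sum 34780 to 38764 against 16137 to 27404). MYH11 among them passed the filter through the layers alone, so its call supports nothing. Of the fibre markers 3 of 10 fell, against 30.1% (641446 to 763015 against 776813 to 977584). With quantile normalization 2 smooth muscle markers rose, against 19.7%, and 4 fibre markers fell, against 19.4%. Fibroblast sums (194158 to 260933 against 207771 to 270066) and endothelial sums (14622 to 23772 against 17661 to 24451) overlapped on U133A. U133B, with fewer markers, read otherwise: fibroblast sums were 12825 to 18302 against 6401 to 7727 and endothelial sums 11115 to 13425 against 4300 to 6966. There the fibre marker TTN rose by 1.38, while on U133A it fell (difference -0.60), and the smooth muscle marker TAGLN fell (difference -0.91). Nerve and Schwann cell markers stayed below the filter on U133A in every comparison. Leukocyte sums overlapped (1665 to 2507 against 1880 to 3273), and sums of gland markers were lower in the layers (1182 to 1695 against 2821 to 4112). Of these 1 of 2 tested passed the threshold, against 30.1% of all probe sets. These 2, KRT18 and PIP, passed the filter through whole muscle alone, so the call of KRT18 supports nothing. Of the adipocyte markers FABP4 alone was tested, and it ranged from 899.6 to 6469 over the arrays. The ACTB ratio on U133A was 2.84 to 5.87 in the layers and 0.716 to 1.04 in whole muscle, while the GAPDH ratio overlapped there. The part of these ratios in the member values was not tested.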

How the data were processed

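RNA of 4 groups was hybridised to U133A and U133B arrays, 2 arrays of each type per group. The deposited files hold linear intensity per probe set as the authors' array software gave it, and its name and settings are not given in the sources used here. Intensities were brought to the same 2% trimmed mean on all arrays of a type, then floored at the pooled 20th percentile and log2 was taken. Probe sets with a mean log2 at or above the pooled median were tested, and 68 control probe sets were left out. Tests used limma 3.58.1 with a mean-variance trend in R 4.3.3, each array type apart, with Benjamini-Hochberg adjustment over all tested probe sets and a threshold of 0.05. The script was tested on simulated data. Isoform ratios were tested by exact two-sided permutation. Members and gene lists were chosen with earlier results of these data known. Replicates of 4 of the 8 whole muscle arrays were numbered by accession order. The named members were the isoform pairs, COX5A, COX5B, COX6B1, COX7A2L, COX8A, the core subunits, ATP5IF1, every called member and, per comparison and complex, the 3 largest differences; a gene is given by its brightest probe set unless another is named, and further members were chosen after their values were seen. Alternatives were quantile normalization, other floors and filters, no trend, all groups in 1 fit, a replicate block, 1 probe set or the mean per gene, and each array left out. The number of arrays limits the precision.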

Additional observations from a re-analysis of the deposited data

Results flagged for a closer look

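Of 108 groups of 4 arrays, 7 held an array that lay far from the other 3, and chance alone gives about 1 in 20 such groups. In whole muscle on U133A, medial rectus replicate 2 stood below the others in 3 members: COX4I1 at 5215 against 12760 to 14526, CYC1 at 5603 against 10201 to 11388, and the dim ATP5MC2 probe set at 738 against 1657 to 1878. ATP5MG on lateral rectus replicate 1 read 56088 against 42291 to 43895. In the layers, UQCRC2 on orbital layer replicate 1, the array whose labels disagree, read 10819 against 16519 to 16805. On U133B, COX4I1 on global layer replicate 2 read 62958 against 47639 to 48943, and COX7B2 on medial rectus replicate 1 read 2660 against 1484 to 1562.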

How the results depend on the processing

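No member was called between the layers or between the muscles under any alternative that was run, and of 22 calls between layers and whole muscle, without 3 that passed the filter through whole muscle alone, 13 were lost or turned with quantile normalization; the cause was not tested.

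Leaving out each array in turn gave these ranges. Between the layers on U133A the median was -0.28 to 0.12 in complex III and -0.28 to -0.13 in complex V, COX7A2 had -0.25 to 0.58, COX4I1 -0.42 to 0.36, COX7A1 -0.071 to 0.40, the dimmer COX5B probe set -0.48 to 1.47 and the COX7A1 to COX7A2 ratio -0.65 to 0.66. On U133B the median was -0.22 to -0.032 and UQCRB had -0.13 to 0.57. Between the muscles, COX4I1 on U133A had -1.35 to 0.12 in its shared and -0.93 to 0.62 in its brightest probe set, COX7A2 -0.16 to 0.18, ATP5F1D -1.72 to 0.19 and ATP5MC2 -1.26 to 0.011. On U133B the median between the muscles was -0.43 to 0.069, COX4I1 had -0.35 to 0.41, ATP5MK -0.86 to 0.069, UQCR10 -1.53 to 0.63, ATP5MC3 -0.95 to 0.41, COX5A -1.01 to 1.15, COX4I2 -1.11 to 0.050 and the COX4I2 to COX4I1 ratio -1.33 to 0.21. The COX5A range covers only 2 of the 4 arrays left out, as COX5A was not tested without the others. Between layers and whole muscle, COX7A1 had -0.0022 to 0.16, the COX7A1 to COX7A2 ratio -1.19 to -0.76, and on U133B COX4I2 had -0.16 to 0.29, ATP5PB -0.53 to 0.034 and UQCRB -0.038 to 0.20. With 4 against 4 arrays the exact permutation p of the COX7A1 to COX7A2 ratio was 0.0286, and its adjusted p of 0.257 did not pass the threshold. With 3 against 4 arrays the exact permutation p was 0.0571 whichever array was left out.

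With quantile normalization the complex V median between the layers was -0.24, and COX4I1 between the muscles was 0.0025. Between layers and whole muscle on U133A the medians were -0.10, -0.22 and -0.022 in complexes III, IV and V, COX7A1 had -0.42 and COX4I1 -0.088. On U133B 2 members were called, COX4I1 had -0.40, ATP5IF1 -0.054, ATP5PB 0.19 and the COX4I2 to COX4I1 ratio 0.56. The U133B median between the layers was 0 with no filter, -0.35 with the filter raised to the 75th percentile and 0.0052 with 1 probe set per gene, and that between layers and whole muscle was -0.14 and 0.85 with those filters. COX5A between the muscles on U133B was 0.12 with a floor at the 40th percentile.

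Layers share replicate numbers, and the deviations of same-numbered arrays correlated by 0.256 on U133A and 0.132 on U133B; with 2 pairs this does not show that the numbers pair the samples. With the replicate number as a block, 0 members were called on either array type, while over all probe sets the calls went from 39 to 92 on U133A and from 2 to 26 on U133B.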
